A study of Mus musculus with 21 samples.

Results

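The comparison set the 3 libraries labelled LIF HP against the 3 labelled LIF LP, which are 6 of the 21 mRNA sequencing libraries of the series. They are all of those 21 with these labels. All 6 came from E14Tg2a, a line of mouse embryonic stem cells that is male, has a 129 background and carries a short-lived green fluorescent protein gene inserted at 1 allele of Rex1 (Zfp42), and the name of the medium in both labels is LIF alone. The series concerned how pluripotency is maintained in different media and described cells sampled before any passage (zero passage) and at 1 and 2 months of culture. The labels do not say what LP and HP stand for, and neither was assigned a length of culture here. The growth protocol is 1 text shared by every library. In it the cells spent 1 week in NDiff227 with CHIR99021 at 3 uM and PD0325901, and at later passages CH, PD and LIF were given and taken away in turn, so the inhibitors present at harvest are known from the group label only. The LP and HP libraries of CH+LIF and 2i+LIF, 3 per group, came from the same line and are used below where the media are compared. E14Tg2a is a single line, and nothing in the labels says that the replicates were separate cultures, so the p-values measure the spread between these libraries, which may be technical.

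LIF is a cytokine that signals through its receptor and gp130 to the transcription factor STAT3, which sustains naive embryonic stem cells. FGF4 made by the cells acts through RAS, RAF, MEK and ERK and moves them towards a formative state, while the cascade switches on its own inhibitors of the DUSP, SPRY and SPRED families. PD0325901 inhibits MEK, CHIR99021 inhibits GSK3 and thereby raises beta-catenin, and a medium with both inhibitors and LIF is what 2i+LIF usually denotes.

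Gene counts ranged from 1298051 to 1916962 in LIF LP and from 1491637 to 2025879 in LIF HP, with 12254 to 13562 genes detected across the 6 libraries. Replicates correlated at 0.922 to 0.937 on log2 CPM (counts per 1e6 gene counts), and no pair agreed within sampling noise (chi-square per degree of freedom of 6.8 or more). CPM here are scaled by the TMM method of edgeR, which corrects for a few genes that take a large share of a library. A gene was called when its adjusted p, from edgeR's quasi-likelihood test over 10643 genes with all 21 libraries sharing an estimate of the spread, was under 0.05. Several library measures did not overlap between the groups. Of all reads, 30.3 to 35.4% aligned to several places in LIF HP and 23.1 to 25.6% in LIF LP, while 8.46 to 16.7% and 17 to 24.6% lay outside genes. Ribosomal protein genes took 19.4 to 28.3% of gene counts in LIF HP and 9 to 12.9% in LIF LP. The TMM scaling factors were 0.653 to 0.962 in LIF HP and 1.09 to 1.22 in LIF LP. The part of these measures in the results below was not tested, apart from gene length, for which every gene test was repeated.

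Markers of embryonic stem cells were present in every library of both groups. Pou5f1 (Oct4) stood at 35.2, 88.3 and 50 CPM in LIF LP and at 62.9, 99.2 and 68 CPM in LIF HP. Sox2 stood at 756, 789 and 699.8 CPM in LIF LP and 427, 373 and 424 CPM in LIF HP. Markers of other cell types were present in part. Of the listed markers, 2 of 18 for primitive endoderm, 7 of 16 for mesendoderm, 6 of 15 for neural ectoderm, 3 of 14 for trophoblast and 3 of 12 for fibroblasts had no counts in the 6 libraries. Defining genes differed in this. Sox17, a primitive endoderm factor, and the trophoblast gene Elf5 had no counts in any of the 6 libraries, nor did the fibroblast genes Col3a1 and Dcn, the neural factor Neurog2 or the mesendoderm gene Mixl1. Each of these zeros allows up to 3 counts per library. Gsc, a mesendoderm factor, had no counts in LIF LP and 9, 24 and 4 in LIF HP, the trophoblast keratin Krt7 had 2, 0 and 0 and then 14, 10 and 5, and the mesendoderm factor Eomes had 21, 5 and 21 and then 12, 14 and 4. Other markers were well expressed, such as Sparc, a secreted matrix protein of primitive endoderm and many other cells, at 526 ± 43.8 CPM in LIF LP and 620.3 ± 103 CPM in LIF HP (mean ± SD, n = 3, not called, adjusted p = 0.725), and Tubb3, neuronal tubulin, at 132 ± 13 and 93.5 ± 23.5 CPM (not called, adjusted p = 0.578). The summed level of each of these lists is given below, and its part in the results was not tested.

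Of the 10643 genes tested, 1060 (9.96%) were called. In LIF HP 567 (5.33%) were higher and 493 (4.63%) lower. A fold change of at least 2 was reached by 565 of the higher and 484 of the lower genes, and of at least 4 by 246 and 194. The CPM of the groups did not overlap for 39.3% of all genes tested. The number of calls moved with single libraries. It was 419, 411 and 704 without LIF LP replicates 1, 2 and 3, 432 and 399 without LIF HP replicates 2 and 3, and 1617 without 2i+LIF LP replicate 1, a library outside the comparison that stood apart from its group. Without that library and 2i+LIF PO replicate 1, the other that stood apart, all 1060 genes were called among 2370.

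The change also followed the length of a gene's exons. The median log2 fold change was 0.845 in the shortest of 10 length groups (168 to 1750 bases), where 198 rose and 19 fell, and -0.641 in the longest (10202 bases and more), where 9 rose and 139 fell. Across 10641 genes, which are not independent replicates, the correlation of log2 fold change with log2 exon length was -0.353. Within libraries the correlation of gene-centred log2 CPM with length was -0.247, -0.532 and -0.339 in LIF HP and 0.27, 0.099 and -0.009 in LIF LP, so the groups did not overlap in it. A fit with length-adjusted offsets called 766 genes (389 higher and 377 lower), of which 620 were among the 1060, or 58.5% of them. That adjustment was chosen after the data were seen, and it is named below where it ended a call or moved a count by over 1.5 times.

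**Figure D1:**
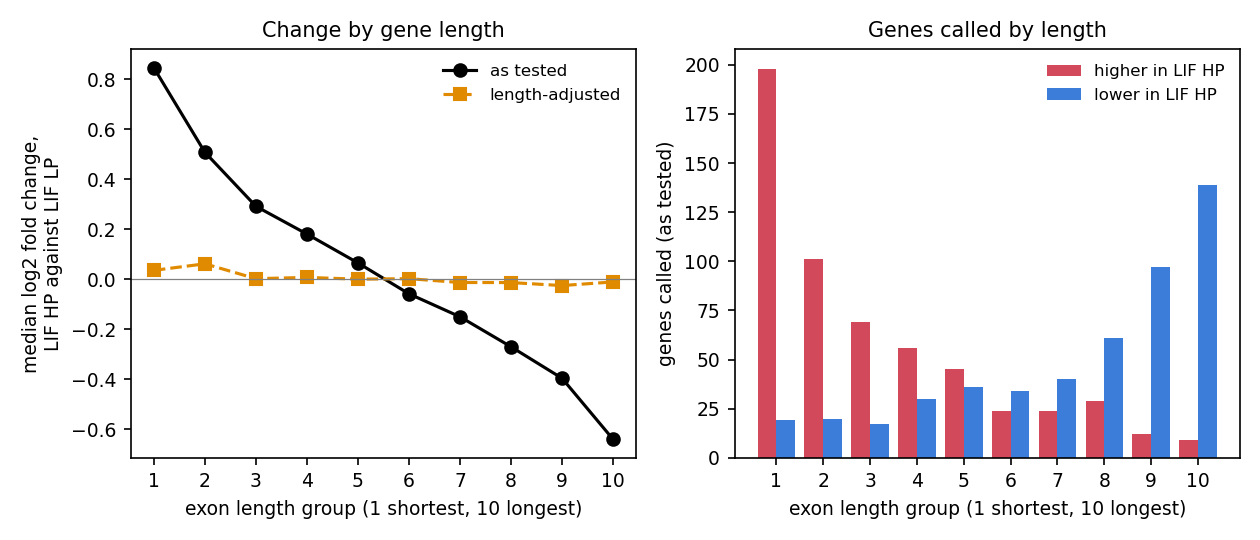
Left, the median log2 fold change of LIF HP against LIF LP in 10 groups of genes ordered by exon length, as tested (black) and with length-adjusted offsets (orange). Right, the number of genes called higher (red) and lower (blue) in each group, which goes from 198 and 19 in the shortest genes to 9 and 139 in the longest.

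Genes with few or no counts in LIF LP stood among the largest rises. Krtdap, a secreted protein of differentiating keratinocytes (chr7:30787896-30791097 on GRCm38), had 0, 0 and 1.44 CPM in LIF LP and 199.9, 311 and 374 CPM in LIF HP. The pooled counts were 3 and 1256, a ratio of 499 (95% interval 170.2 to 2421, counting error only), with an adjusted p of 2.58e-08. All 3 LIF HP libraries lay far above all 3 LIF LP libraries. The homeobox gene Cdx1 (chr18:61018862-61036199), which patterns the posterior embryo, had no counts in LIF LP and 31.9, 36.3 and 38.1 CPM in LIF HP, and was at least 62.7-fold higher against a floor of 3 counts in the pooled group (adjusted p = 0.000385). Tnni1, slow skeletal troponin I, was likewise without counts in LIF LP and reached 24.2, 34.5 and 44.3 CPM, at least 58-fold higher (adjusted p = 1.33e-05). Spic, an ETS factor of the macrophage lineage, had 1 count in LIF LP and stood at 25.2, 41.3 and 36.1 CPM in LIF HP, a ratio of pooled counts of 179.8 (95% interval 31.8 to 7150.0).

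Other large rises were those of Srarp, Slc24a5, Sp100, Wdr93, Pglyrp1, Dclk3 and Adh1, all without counts in LIF LP, with lower bounds of 15.1- to 43.3-fold on the rise. Adh1 is an alcohol dehydrogenase that oxidises retinol. The LIF HP libraries were even for Slc24a5 (20.1, 16.6 and 14.4 CPM) and uneven for Sp100 (12.9, 24 and 2.06 CPM) and Pglyrp1 (2.58, 19.1 and 15.4 CPM). Slc24a5 overlaps Myef2, Sp100 overlaps Gm17017 and Adh1 overlaps Gm16559, so reads may be shared. The 12 largest rises kept their calls when each of the 6 libraries was left out in turn, with adjusted p of at most 0.0362. Of all genes tested, 40 had no counts in LIF LP and 17 of them were called, while 17 had none in LIF HP and 9 of them were called.

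Several of the largest falls ended at or near 0. Adam23, a cell adhesion protein of the ADAM family (chr1:63445891-63596276), stood at 190.0, 229.7 and 173 CPM in LIF LP and at 3.09, 0 and 2.06 CPM in LIF HP, a log2 fold change of -6.77 (SE 0.78, adjusted p = 9.52e-06). Dnmt3l, the cofactor of de novo DNA methyltransferases (chr10:78041947-78063622), stood at 85.4, 134 and 114 CPM and at 2.58, 0.616 and 0 CPM (log2 fold change -6.37, SE 0.79, adjusted p = 1.3e-05). Its neighbour Aire, which overlaps it, was at 6.06, 5.31 and 7.7 CPM in LIF LP and without counts in LIF HP. Manba, lysosomal beta-mannosidase, was at 58.9, 40.5 and 29.3 CPM and then at 1.03, 0 and 0 CPM, with 229 pooled counts against 2 (ratio 96.1, 95% interval 26.3 to 799). The opioid precursor Pdyn had 85 counts in LIF LP and none in LIF HP, at least 23.8-fold lower, and the protease inhibitor Spink1 had 84 and none, at least 23.5-fold lower. Ptgs1 (cyclooxygenase), Gm40849 and Gm26870 were also among the 12 largest falls. Calls ended without LIF HP replicates 1, 2 or 3 for Aire (adjusted p up to 0.0688), without LIF HP replicates 1 or 3 for Gm26870 (0.0561) and without 5 of the 6 libraries, all but LIF LP replicate 3, for Gm40849 (0.111).

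Abundant genes changed as well. The most abundant genes that fell included L1td1, an RNA-binding protein of pluripotent cells, at 751, 1121 and 1112 CPM in LIF LP and 186, 132 and 161 CPM in LIF HP (log2 fold change -2.64, SE 0.40, adjusted p = 0.000238). Topoisomerase Top2a (1369 ± 101 against 518 ± 72.1 CPM, mean ± SD, n = 3) and the stress granule protein G3bp2 (607 ± 78.5 against 196 ± 32.1 CPM) fell and kept their calls without each of the 6 libraries. Nedd4, Enah, Tet1, Ddx3x and Slc20a1 completed the 8, with log2 fold changes between -2.21 and -1.14. Each of these 5 lost its call without LIF HP replicate 2, with adjusted p from 0.0746 for Nedd4 to 0.171 for Ddx3x. Enah lost it also without all LIF LP libraries and LIF HP replicate 3, Ddx3x without any single one of the 6, Tet1 without LIF LP replicates 1 and 2 and LIF HP replicate 3, and Slc20a1 without LIF LP replicates 1 and 2. Length-adjusted offsets ended the calls of Enah (adjusted p = 0.275) and Ddx3x (0.0521).

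**Figure D2:**
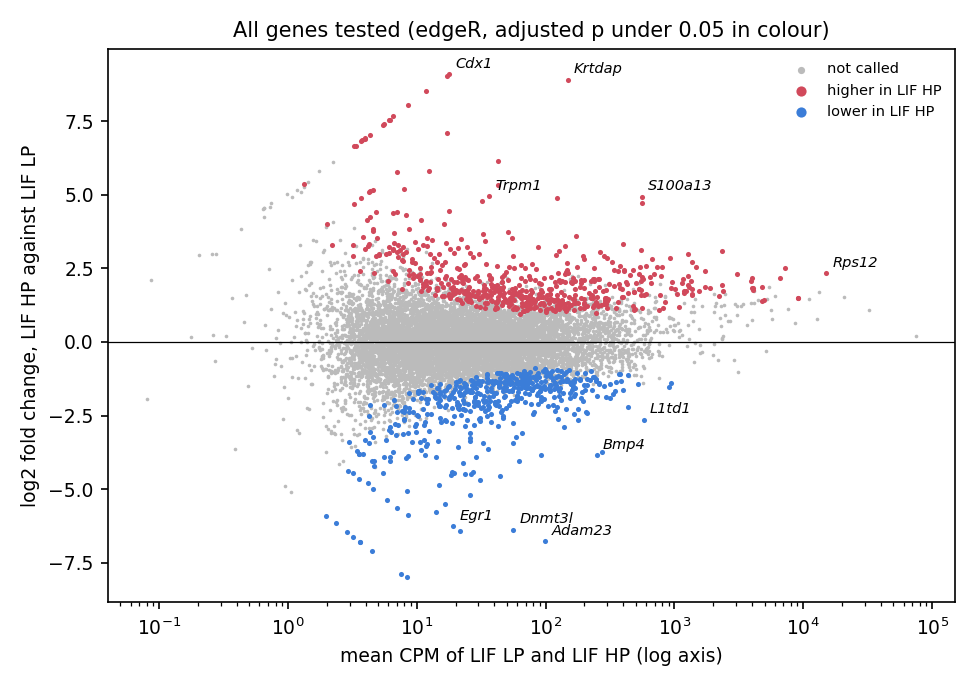
Log2 fold change of LIF HP against LIF LP for all 10643 genes tested against the mean CPM of both groups on a log axis, with called genes in red (567 higher) and blue (493 lower). Krtdap and Cdx1 lie at the top with almost no counts in LIF LP and Adam23 and Dnmt3l near the bottom, while lines of points at the left are genes with few counts, whose fitted fold change depends on the prior count.

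Feedback inhibitors of ERK signalling were lower in the libraries labelled LIF HP, although that label names no MEK inhibitor. Of 8 tested genes of the list (11 in all), 5 fell and none rose, against 4.63% falling among all genes. Their median log2 fold change was -1.97, beside 0.01 over all genes. Dusp6, the phosphatase that removes phosphate from ERK, stood at 20.4, 15.3 and 47.1 CPM in LIF LP and at 0, 1.23 and 0 CPM in LIF HP. The ratio of pooled counts was 66.3 (95% interval 18.1 to 552, adjusted p = 0.000568). Spry4, which blocks receptor tyrosine kinase signalling, was at 6.61, 10.6 and 9.62 CPM in LIF LP and had no counts in LIF HP, at least 13.4-fold lower. Its relative Spry2 was at 193, 216 and 303 CPM against 86.1, 57.3 and 69 CPM (log2 fold change -1.74, SE 0.40, adjusted p = 0.00803). Spred1, which restrains RAS through neurofibromin, was at 79.9, 79.7 and 79.4 CPM against 18.6, 11.7 and 8.24 CPM, and Dusp5, a nuclear ERK phosphatase, at 10.5, 9.29 and 20.7 CPM against 3.61, 4.31 and 0 CPM. No LIF HP library reached the lowest LIF LP library for any of the 5. Spred2, whose log2 fold change was -0.95, was not called (adjusted p = 0.274). Dusp6, Spry2 and Spry4 kept their calls without each of the 6 libraries. Spred1 lost it without LIF HP replicates 2 or 3 (adjusted p up to 0.077) and Dusp5 without any single one of the 6 (up to 0.17), so 3 genes fell without LIF HP replicate 2 or 3.

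ETS factors of the PEA3 group, which are switched on by ERK, gave 2 falls among 3 genes, beside 4.63% falling among all genes. Etv4 stood at 88.7, 121 and 108 CPM in LIF LP and 13.4, 14.2 and 5.15 CPM in LIF HP (log2 fold change -3.22, SE 0.40, adjusted p = 1.3e-05). Etv1 stood at 38, 47.8 and 40.4 CPM and 7.73, 5.54 and 3.09 CPM (log2 fold change -2.87, SE 0.52, adjusted p = 0.00125). In both genes every LIF HP library lay below every LIF LP library. Etv5, the third member, stood at 196, 301 and 224 CPM and 224, 169 and 229.8 CPM, with overlapping libraries and a log2 fold change of -0.21 (SE 0.35, adjusted p = 0.755). Whether the change of Etv5 differed from those of Etv1 and Etv4 was not tested.

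Among 16 tested immediate-early genes, which respond rapidly to growth signals, 3 fell and 1 rose, beside 4.63% and 5.33% of all genes. The median log2 fold change of the list was -0.16. Egr1, a zinc finger factor induced by ERK, had 57.8, 21.2 and 34.1 CPM in LIF LP and 0.515, 0.616 and 0 CPM in LIF HP, 208 pooled counts against 2 (ratio 87.3, 95% interval 23.9 to 726, adjusted p = 0.00135). Fos, a subunit of AP-1, was at 18.7, 11.9 and 15.4 CPM and 2.06, 1.23 and 6.18 CPM, and Phlda1 at 32.5, 29.2 and 48.1 CPM and 7.73, 12.9 and 7.21 CPM. The stress factor Atf3 went the other way, from 2.2, 5.98 and 1.44 CPM to 10.3, 24 and 12.4 CPM (log2 fold change 2.31, SE 0.67, adjusted p = 0.0289). Egr1 kept its call without each of the 6 libraries. The call of Phlda1 ended without any single one of them (adjusted p up to 0.104), that of Fos without each library except LIF HP replicate 3 (up to 0.161) and that of Atf3 without LIF LP replicates 1 or 3 or LIF HP replicates 2 or 3 (up to 0.179) and with length-adjusted offsets (0.0901). A single gene of the list fell without any one of LIF LP replicates 1, 2 and 3 and LIF HP replicates 1 and 2.

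**Figure D3:**
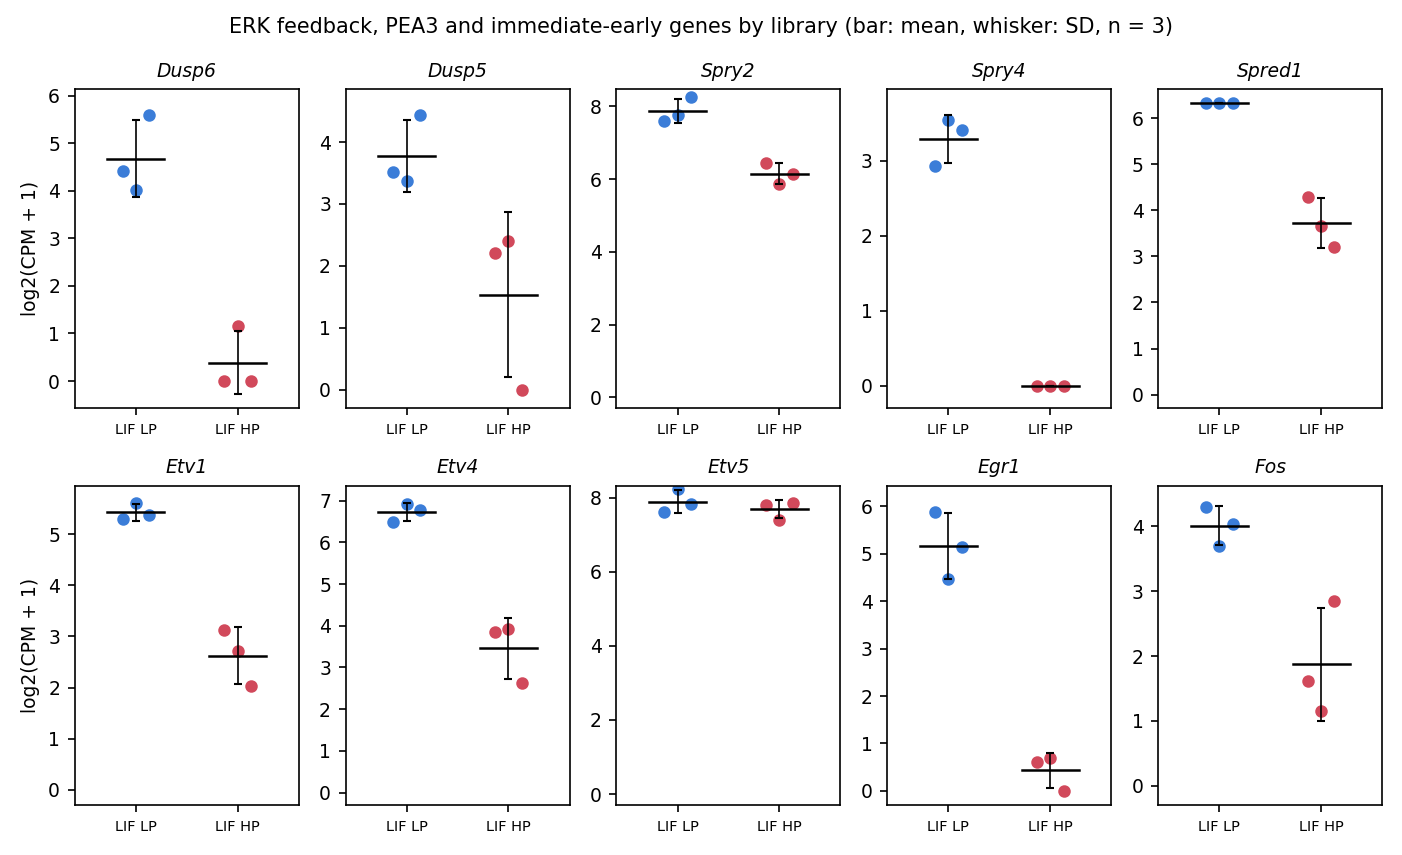
Level of 10 ERK feedback, PEA3 and immediate-early genes as log2(CPM + 1) in the 3 LIF LP and 3 LIF HP libraries (points), with the mean (bar) and SD (whisker). The groups overlap in Etv5 and in none of the other 9.

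Of 19 tested genes of the cascade itself, from RAS to ERK, 2 fell and none rose (1 fell with length-adjusted offsets), and the median log2 fold change was -0.21. The share called over all genes is 9.96%, so the count is near the background. The kinase Braf was at 121, 79.7 and 90.9 CPM in LIF LP and 50.5, 20.9 and 33 CPM in LIF HP (log2 fold change -1.48, SE 0.41, adjusted p = 0.0233). It overlaps Ndufb2 and lost its call without LIF LP replicate 1 or LIF HP replicates 2 or 3 (up to 0.13) and with length-adjusted offsets (0.109). Among 6 tested FGF ligands and receptors only Fgf1 was called, at 13.8, 8.63 and 12 CPM in LIF LP and 0.515, 0 and 0 CPM in LIF HP, a call lost without LIF HP replicates 2 or 3 (up to 0.061). The ligand Fgf4 stood at 226, 194 and 150.5 CPM and 202, 228 and 243 CPM, overlapping between groups (log2 fold change 0.24, SE 0.35, adjusted p = 0.719).

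Promoter windows were read for genes that moved together in these lists, since ETS factors are the best known nuclear targets of ERK and TCF/LEF factors carry the beta-catenin signal. RefSeq windows of 250 bases before to 50 after the start site on GRCm38.p6 were searched on both strands for the ETS core CGGAAG and the TCF/LEF motif ATCAAAG. Of 32851 windows, 16.9% held the first and 3.73% the second. The ETS core was found for Dusp6, Fos and Spred1, 3 of the 6 genes of the ERK, PEA3 and immediate-early lists that fell and had a window, and the TCF/LEF motif for Sp5, 1 of 2 Wnt list genes that rose and had one. The shares count windows and the lists count genes. The windows of Dusp6 (chr10:99262981-99263280), Fos (chr12:85473640-85473939) and Sp5 (chr2:70474673-70474972) are printed because they hold a match, so they do not stand for the list genes without one. That of Krtdap (chr7:30787655-30787954), a gene of none of the lists, also holds a match and is shown for the size of its rise. All are on the plus strand and have the motif in capitals. It lies on the minus strand in Dusp6 and Sp5, 62 and 104 bases before the start site, and on the plus strand in Fos, 225 bases before it, and in Krtdap. A match describes letters only and is no evidence of binding.
Dusp6: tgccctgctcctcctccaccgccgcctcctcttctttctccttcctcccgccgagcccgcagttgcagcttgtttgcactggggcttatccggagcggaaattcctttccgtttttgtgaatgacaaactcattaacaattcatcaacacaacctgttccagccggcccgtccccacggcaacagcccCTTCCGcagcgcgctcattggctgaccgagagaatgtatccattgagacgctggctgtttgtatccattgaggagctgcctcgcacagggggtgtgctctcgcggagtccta
Fos: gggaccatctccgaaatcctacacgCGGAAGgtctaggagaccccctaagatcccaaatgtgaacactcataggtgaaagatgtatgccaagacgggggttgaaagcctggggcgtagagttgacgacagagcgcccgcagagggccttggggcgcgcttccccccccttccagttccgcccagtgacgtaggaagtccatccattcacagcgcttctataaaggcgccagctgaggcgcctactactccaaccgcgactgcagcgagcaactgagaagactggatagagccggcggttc
Sp5: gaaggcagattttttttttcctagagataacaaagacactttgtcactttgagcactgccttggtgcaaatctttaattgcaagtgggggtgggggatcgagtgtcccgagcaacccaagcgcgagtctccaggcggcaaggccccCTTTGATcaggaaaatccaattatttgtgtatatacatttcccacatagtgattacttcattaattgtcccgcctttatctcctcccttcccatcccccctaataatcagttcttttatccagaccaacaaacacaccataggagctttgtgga
Krtdap: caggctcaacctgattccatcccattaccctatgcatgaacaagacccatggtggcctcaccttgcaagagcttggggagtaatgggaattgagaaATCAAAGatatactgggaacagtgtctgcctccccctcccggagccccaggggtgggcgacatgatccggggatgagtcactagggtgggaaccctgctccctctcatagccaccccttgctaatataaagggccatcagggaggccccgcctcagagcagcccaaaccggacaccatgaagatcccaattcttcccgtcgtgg

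Of 17 Wnt targets and feedback genes, which CHIR99021 is known to raise, 12 were tested, and 3 rose and none fell, beside 5.33% rising among all genes. Sp5, a direct target of beta-catenin, had 1.1, 0 and 0 CPM in LIF LP and 19.6, 30.2 and 23.7 CPM in LIF HP, 2 pooled counts against 110 (ratio 65.5, 95% interval 17.7 to 548, adjusted p = 0.00176). Axin2, which feeds back on the pathway, had 0, 1.33 and 0.962 CPM and 12.4, 8.62 and 6.18 CPM, and Cdx1 is given above. Axin2 overlaps Gm11670 and lost its call without any single one of the 6 libraries (adjusted p up to 0.13). Ccnd1, another target, was at 90.2 ± 25.6 and 55 ± 4.65 CPM (log2 fold change -0.71, adjusted p = 0.243). None of 13 TCF/LEF factors and beta-catenin complex genes was called.

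Of 16 tested genes on the naive pluripotency list 2 fell and none rose, beside 4.63% of all genes falling and 9.96% called in either direction. The median log2 fold change was -0.18. Nanog stood at 249.5, 141.4 and 206 CPM in LIF LP and 254, 573 and 338 CPM in LIF HP (log2 fold change 0.96, SE 0.37, adjusted p = 0.0944). Tfcp2l1 stood at 205, 159 and 117 CPM and 534, 214 and 380.2 CPM (log2 fold change 1.23, SE 0.44, adjusted p = 0.0735), without overlap and past the threshold with length-adjusted offsets (adjusted p = 0.00986). Esrrb (0.27), Klf2 (0.64), Klf4 (-0.33) and Tbx3 (-0.85) had log2 fold changes that did not pass the test. Zfp42, the gene that carries the reporter, was at 109.6, 91.6 and 116 CPM and 57.2, 54.8 and 68 CPM (log2 fold change -0.82, adjusted p = 0.141, and 0.0355 with length-adjusted offsets). The 2 genes that fell were Manba, the lysosomal enzyme given above and not a transcription factor, and the zinc finger gene Zfp462. Zfp462 stood at 163, 99.6 and 85.1 CPM against 7.21, 4.93 and 9.27 CPM (log2 fold change -4.04, SE 0.50, adjusted p = 1.27e-05). With length-adjusted offsets 3 genes of the list fell and 1 rose.

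Of 17 tested genes in the wider core pluripotency list 4 fell and none rose, beside 4.63% falling among all genes, and the median log2 fold change was -0.70. Utf1, a chromatin protein of stem cells, stood at 71, 77 and 108 CPM and 1.03, 6.77 and 3.09 CPM (log2 fold change -4.55, SE 0.74, adjusted p = 0.000433). The RNA-binding protein Lin28a, which blocks let-7 maturation, stood at 45.7, 76.3 and 74.1 CPM and 8.76, 8.01 and 13.4 CPM (log2 fold change -2.73, adjusted p = 0.00415). Zfp57, which protects imprints, and Sall4 fell by 1.59 and 1.19 on the log2 scale. Zfp57 lost its call without each library except LIF LP replicate 3 (adjusted p up to 0.124) and Sall4 without each except LIF HP replicate 1 (up to 0.215) and with length-adjusted offsets (0.0634), which left 2 genes without LIF LP replicates 1 or 2 or LIF HP replicates 2 or 3. Without the 2 libraries of 2i+LIF that stood apart, 8 fell. Pou5f1 had a log2 fold change of 0.41 (SE 0.39, adjusted p = 0.545), which was -0.02 with length-adjusted offsets. Sox2 was at -0.88 (SE 0.34, adjusted p = 0.0964), past the threshold with those offsets (adjusted p = 0.0468), and Dppa5a at 2.26 (SE 0.77, adjusted p = 0.0588).

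Of 19 listed genes of the formative and primed epiblast, the state that follows the naive one, 14 were tested. In LIF HP 5 fell, none rose and 9 did not pass the test, beside 4.63% falling among all genes. The median log2 fold change was -1.63, beside 0.01 over all genes. Sox11, a factor of early neural cells as well, stood at 32.5, 39.8 and 40.9 CPM in LIF LP and 3.09, 1.23 and 0 CPM in LIF HP (log2 fold change -4.44, SE 0.82, adjusted p = 0.00147). Otx2, the factor that drives the exit from naive pluripotency, was at 13.8, 7.3 and 13 CPM and 0, 3.69 and 0 CPM. Pou3f1 (Oct6) was at 8.26, 3.98 and 4.81 CPM and had no counts in LIF HP, at least 8.68-fold lower, and Fst, a secreted activin antagonist, was at 4.41, 5.98 and 8.18 CPM and 0, 0.616 and 0 CPM. Otx2 overlaps Otx2os1, Pou3f1 overlaps Gm2164 and Fst overlaps Gm47040. Calls ended for Pou3f1 without LIF LP replicate 1 or any LIF HP library (adjusted p up to 0.0747), for Otx2 without LIF LP replicate 1 or LIF HP replicates 1 or 3 (up to 0.082) and for Fst without LIF HP replicates 1 or 3 (up to 0.0622), so 3 genes fell without LIF LP replicate 1 and 2 without LIF HP replicate 1 or 3. Without 2i+LIF LP replicate 1, or without both libraries that stood apart, the number was 9. Dnmt3b, a marker of this state, was at 45.6 ± 7.76 and 21 ± 1.52 CPM (log2 fold change -1.11, adjusted p = 0.0693).

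Of 16 tested LIF receptor and STAT3 target genes, 2 fell and none rose, near the 9.96% called among all genes, with a median log2 fold change of -0.43. Lifr, the LIF receptor, stood at 94.2, 96.3 and 97.2 CPM in LIF LP and 30.4, 18.5 and 21.6 CPM in LIF HP (log2 fold change -2.02, SE 0.52, adjusted p = 0.0158), and Socs2, a feedback inhibitor, at 236, 235 and 258 CPM and 62.4, 93 and 82.4 CPM (-1.62, SE 0.47, adjusted p = 0.0278). Lifr lost its call without LIF HP replicates 2 or 3 (adjusted p up to 0.0814) and Socs2 without any single one of the 6 (up to 0.0847) and with length-adjusted offsets (0.118), with which 1 gene of the list fell and 1 rose. Socs3, the classical STAT3 target, was at 57.3, 34.5 and 65.4 CPM and 40.7, 38.2 and 26.8 CPM, with overlap (log2 fold change -0.57, SE 0.56, adjusted p = 0.563).

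Of 16 tested Nodal and activin signalling genes, 4 fell and none rose, beside 4.63% falling among all genes, and the median log2 fold change was -0.42. Lefty1, a Nodal antagonist and target, stood at 203, 387 and 324 CPM in LIF LP and 40.7, 44.3 and 60.8 CPM in LIF HP (log2 fold change -2.65, SE 0.56, adjusted p = 0.00422). Its paralogue Lefty2 stood at 311, 541 and 529.5 CPM and 109, 102 and 166 CPM, and since the pair is similar in sequence their reads may be shared. Inhbb, a subunit of activin, stood at 52.3, 40.5 and 47.6 CPM and 3.61, 9.24 and 1.03 CPM (log2 fold change -3.25, SE 0.66, adjusted p = 0.00329). Lefty2 lost its call without any single one of the 6 libraries (adjusted p up to 0.153), and the list held 2 falls in each case.

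Of 12 tested BMP signalling genes and Id targets, 4 fell and 1 rose, beside 4.63% and 5.33% of all genes, and the median log2 fold change was -0.77. The ligand Bmp4 stood at 351, 547 and 499 CPM in LIF LP and 27.3, 33.9 and 36.1 CPM in LIF HP (log2 fold change -3.85, SE 0.74, adjusted p = 0.00199) and every LIF HP library far below every LIF LP library. Bmp4 overlaps Gm15217 and Gm15222. Its receptor Bmpr2 stood at 61.7, 63.7 and 52.4 CPM and 15.5, 6.77 and 14.4 CPM (log2 fold change -2.28, adjusted p = 0.00332). Id1 and Id2, inhibitors of basic helix-loop-helix factors, were at 52.9, 81.7 and 77.4 and 17.6, 60.4 and 61.6 CPM in LIF LP and at 14.9, 16 and 16.5 and 6.7, 7.39 and 1.03 CPM in LIF HP. Bmp7, another ligand, was at 9.91, 2.66 and 0.962 CPM and 18.6, 17.9 and 20.6 CPM (log2 fold change 2.06, adjusted p = 0.0442). The call of Id2 ended without LIF LP replicate 2 or LIF HP replicate 3 (adjusted p up to 0.0784), that of Id1 without each library except LIF LP replicate 1 (up to 0.0793), and that of Bmp7 without each except LIF LP replicate 1 (up to 0.156) and with length-adjusted offsets (0.0797). Without LIF LP replicate 2 or LIF HP replicate 3, 2 genes of the list fell. Id3 had 29 and 9 pooled counts and was not called.

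Of 12 tested genes of the DNA methylation machinery, 2 fell and none rose, beside 4.63% falling among all genes, with a median log2 fold change of -0.47. Beside Dnmt3l, the dioxygenase Tet1, which oxidises 5-methylcytosine, stood at 853, 733 and 578 CPM in LIF LP and 234, 48.6 and 184 CPM in LIF HP (log2 fold change -2.21, SE 0.58, adjusted p = 0.0168; its dependence on single libraries is given above). The maintenance enzyme Dnmt1 was at 105, 112 and 120.2 CPM and 98.4, 51.7 and 65.9 CPM (log2 fold change -0.64, adjusted p = 0.357). Of 20 tested germline genes that promoter methylation silences, only Fkbp6, a co-chaperone of the piRNA pathway, rose, from 24.8, 7.97 and 17.3 CPM to 203, 174 and 92.7 CPM (log2 fold change 3.22, SE 0.61, adjusted p = 0.00185), a share close to that of all genes. None of 11 PRC2 genes was called.

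Imprinted genes numbered 22 tested, of which 3 fell and 1 rose, beside 4.63% and 5.33% of all genes. Their median log2 fold change was -0.32, and 0.01 with length-adjusted offsets. Zdbf2 stood at 332, 378 and 343 CPM in LIF LP and 68, 56 and 72.1 CPM in LIF HP (log2 fold change -2.42, SE 0.44, adjusted p = 0.00125). Peg3 stood at 50.7, 35.2 and 38.5 CPM and 21.1, 6.77 and 9.27 CPM, and Nnat, which lies in an intron of Blcap and overlaps it, at 8.26, 13.9 and 13 CPM and 0, 1.85 and 0 CPM. Plagl1, a zinc finger factor, rose from 2.2, 2.66 and 1.92 CPM to 38.1, 8.01 and 19.6 CPM (log2 fold change 3.27, SE 0.67, adjusted p = 0.00345), with an uneven spread in LIF HP. Peg3 lost its call without LIF LP replicate 1 or LIF HP replicates 2 or 3 (adjusted p up to 0.106) and with length-adjusted offsets (0.16), and Nnat without LIF HP replicates 1 or 3 (up to 0.0695). Without 2i+LIF LP replicate 2, or without both libraries that stood apart, 5 imprinted genes were called lower.

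Of 10 tested D-type cyclins and CDK inhibitors, 2 rose and 2 fell, beside 5.33% and 4.63% of all genes. Their median log2 fold change was -0.16, and 0.03 with length-adjusted offsets. The inhibitor Cdkn1a (p21) stood at 145.4, 142.1 and 171 CPM in LIF LP and 503, 414 and 378 CPM in LIF HP (log2 fold change 1.50, SE 0.36, adjusted p = 0.0105), and Cdkn2a, which encodes p16 and p19ARF, at 16.5, 7.97 and 23.6 CPM and 57.7, 106 and 73.2 CPM (2.28, SE 0.53, adjusted p = 0.00791). Cyclin D2 (Ccnd2) stood at 51.2, 37.8 and 47.6 CPM and 2.06, 1.85 and 2.06 CPM (log2 fold change -4.48, SE 0.73, adjusted p = 0.000414), while Ccnd3 had a log2 fold change of 0.39 and was not called. Rb1, the retinoblastoma protein, fell by 1.83 on the log2 scale. Ccnd2 overlaps 9330179D12Rik and Gm43126, and Rb1 overlaps Lpar6, Rcbtb2 and Gm17233. The libraries of LIF HP and LIF LP did not overlap in any of the 10, beside 39.3% of all genes tested, and 6 of the 10 were not called. The calls of Cdkn1a ended without LIF LP replicates 1 or 2 (adjusted p up to 0.0574), of Cdkn2a without LIF LP replicate 2 (0.0572) and of Rb1 without LIF LP replicates 1 or 2 or LIF HP replicates 1 or 2 (up to 0.13). Among 18 p53 genes Cdkn1a rose and Zmat3 fell by 1.10, a call lost without each library except LIF HP replicate 1 (up to 0.213) and with length-adjusted offsets (0.281).

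Of 26 DNA replication and mitosis genes tested, 3 fell and none rose, near the 9.96% called among all genes, and the median log2 fold change was -0.31. Mki67, the proliferation antigen Ki-67, stood at 332, 313 and 232 CPM in LIF LP and 76.8, 33.3 and 73.2 CPM in LIF HP (log2 fold change -2.26, SE 0.37, adjusted p = 0.000434). Top2a fell by 1.40 and Rrm1, the large subunit of ribonucleotide reductase, by 1.04, the latter losing its call without each library except LIF LP replicate 1 (adjusted p up to 0.149) and with length-adjusted offsets (0.301). Thymidine kinase Tk1 had a log2 fold change of 1.58 (SE 0.52, adjusted p = 0.0503), the opposite sign, and passed the threshold with length-adjusted offsets (adjusted p = 0.0413).

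The ATF4, glycolysis and sterol lists held 3 of 24, 2 of 29 and 2 of 30 called genes, beside 9.96% among all genes, with median log2 fold changes of -0.19, -0.24 and -0.04. Among ATF4 targets, asparagine synthetase Asns rose from 116, 81 and 95.7 CPM to 414, 506 and 356 CPM (log2 fold change 2.12, SE 0.36, adjusted p = 0.000558). The stress regulator Nupr1 rose from 30.8, 23.9 and 22.1 CPM to 131, 158.3 and 136 CPM (2.46, SE 0.45, adjusted p = 0.00144), and the arginine transporter Slc7a3 fell from 71.6, 63.1 and 102 CPM to 11.3, 16.6 and 13.4 CPM (-2.51, SE 0.58, adjusted p = 0.00827). These 3 kept their calls without each of the 6 libraries. Atf4 itself was at 0.78 (adjusted p = 0.174). Of 29 glycolysis and hypoxia genes, Pdk1, which keeps pyruvate out of mitochondria, fell from 61.1, 63.7 and 53.4 CPM to 9.79, 10.5 and 11.3 CPM (-2.50, SE 0.40, adjusted p = 0.000335), and the lactate transporter Slc16a3 fell by 2.05, a call lost without LIF HP replicate 3 (adjusted p = 0.069). With length-adjusted offsets 3 glycolysis and hypoxia genes fell and 1 rose. Of 30 sterol and fatty acid genes 1 rose and 1 fell, the former being the sterol isomerase Ebp (log2 fold change 1.33, SE 0.34). The Ebp call ended without LIF LP replicates 1 or 3 or LIF HP replicate 3 (up to 0.0774) and with length-adjusted offsets (0.0805).

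Ribosomal protein genes, most of them short and abundant, were higher in LIF HP. Of 77 cytosolic ribosomal protein genes, a set taken up after its values were seen, 41 rose and none fell, beside 5.33% rising among all genes, with a median log2 fold change of 1.73, beside 0.01 over all genes. Their summed level was 74400, 100000 and 119000 CPM in LIF LP and 203000, 301000 and 435000 CPM in LIF HP. The TMM scaling widens this gap. As unscaled shares of gene counts these genes took 9 to 12.9% in LIF LP and 19.4 to 28.3% in LIF HP. With length-adjusted offsets 23 rose and the median was 1.16. Many of these genes have near-identical processed copies, and the share of reads that aligned to several places differed between the groups, so single values are uncertain. Rps24 kept its call without each of the 6 libraries (log2 fold change 2.52, SE 0.53, adjusted p = 0.00415). The most abundant genes that rose also held Rps12, Rps25, Rpl32, Rpl14, Eif2s2 and Chchd2, each of which lost its call without LIF LP replicate 1, LIF LP replicate 2 or LIF HP replicate 3, with a highest adjusted p of 0.175 for Chchd2. All of these but Rps25 lost it also without LIF HP replicate 2, Rps12, Rpl14, Eif2s2 and Chchd2 without LIF LP replicate 3, and Rpl14 without LIF HP replicate 1. Length-adjusted offsets ended the calls of Rps12, Rpl32, Rpl14 and Chchd2 (adjusted p from 0.059 to 0.211).

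Of 27 nuclear respiratory chain subunits, 6 rose, none fell and 21 were not called, beside 5.33% rising among all genes. The median log2 fold change was 1.15, beside 0.01 over all genes. Cox5a stood at 89.8, 140.1 and 218 CPM in LIF LP and 452, 764 and 545 CPM in LIF HP (log2 fold change 1.97, SE 0.47, adjusted p = 0.00971), and Ndufv2 at 128, 83 and 129.9 CPM and 219, 392 and 429 CPM (1.60, SE 0.37, adjusted p = 0.00825). The others were Ndufa4, Cox4i1, Cox5b and Cox7c. With length-adjusted offsets 3 rose and 1 fell, the median was 0.476, and Cox4i1, Cox5b and Cox7c were among the calls that ended (adjusted p = 0.141, 0.133 and 0.0601). The count was 1, 0, 1 and 2 without LIF LP replicates 1 and 2 and LIF HP replicates 2 and 3, and 12, 10 and 12 without 2i+LIF PO replicates 1 and 2 and 2i+LIF LP replicate 1. It was 15 without both libraries that stood apart. None of 11 mitochondrially encoded genes was called, and their share of gene counts overlapped between the groups (3.48 to 9.35% in LIF HP and 2.74 to 8.01% in LIF LP).

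Genes of other lineages gave 6 calls in 4 lists, beside 9.96% called among all genes. Neurofilaments Nefl and Nefm, which lie side by side and overlap in the annotation, rose from 84.3, 69.7 and 58.7 and 1.65, 8.63 and 2.4 CPM to 313, 354 and 240.1 and 39.7, 35.7 and 38.1 CPM (adjusted p = 0.00374 and 0.000433). The neural factor Sox1 fell from 53.4, 53.1 and 39.4 CPM to 9.28, 5.54 and 5.15 CPM (log2 fold change -2.82, adjusted p = 0.0154), a call lost without LIF LP replicates 1 or 2 or LIF HP replicates 2 or 3 (up to 0.0757). Summed over the neural list, the libraries held 279 to 290 CPM in LIF LP and 384 to 498 CPM in LIF HP, while 5 of its 7 tested genes had log2 fold changes below 0, with a median of -0.49. Tfap2c, a factor of trophoblast and germ cells, rose from 43.6 ± 14.8 CPM to 142.1 ± 17.8 CPM (mean ± SD, n = 3; log2 fold change 1.70, SE 0.39, adjusted p = 0.00739), a call lost without LIF LP replicate 2 (0.0548). Of the trophoblast list 6 of 14 genes were tested and no other was called. Its summed level was 31.2 to 69.4 CPM in LIF LP and 152.5 to 184 CPM in LIF HP, without overlap. Most of that was Tfap2c, since the means of the sum were 48.6 and 169.6 CPM. The median log2 fold change of the tested genes was 2.14, and Krt18 had 7 and 32 pooled counts. Of the mesendoderm list 5 of 16 genes were tested, Cdx1 alone was called, and the summed level was 7.3 to 20.4 CPM in LIF LP and 56.7 to 70.2 CPM in LIF HP, with a median log2 fold change of 4.54. Cdx1 made up 35.5 CPM of the mean sum of 62 CPM in LIF HP and none of the 13.6 CPM in LIF LP. In the primitive endoderm list, 8 of 18 tested, only the basement membrane gene Lamb1 was called, at 17.1 ± 7.81 and 2.95 ± 0.827 CPM, and lost that without each library except LIF LP replicate 1 (up to 0.0994) and with length-adjusted offsets (0.0857). Summed primitive endoderm levels overlapped, at 630 to 785 CPM in LIF LP and 612 to 847 CPM in LIF HP. No 2-cell-like marker passed the filter on low counts, and neither of 2 tested fibroblast markers was called. Summed fibroblast levels were 10.6 to 36.4 CPM in LIF LP and 7.39 to 9.79 CPM in LIF HP. Bulk libraries cannot tell fewer cells of a type from less RNA per cell.

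Of 16 tested adhesion and junction genes, 2 rose and 1 fell, beside 5.33% and 4.63% of all genes, and the median log2 fold change was -0.37. The tight junction gene Cldn4 rose from 18.2, 12.6 and 26.9 CPM in LIF LP to 80.9, 80.7 and 88.6 CPM in LIF HP (log2 fold change 2.10, SE 0.47, adjusted p = 0.00654). Gja1 (connexin 43) had 24 pooled counts in LIF LP and none in LIF HP, at least 6.72-fold lower, a call lost without LIF LP replicate 2 or any LIF HP library (adjusted p up to 0.0978).

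Of 5 tested Y-linked genes in this male line, Ddx3y (270.4, 286 and 203 CPM in LIF LP and 79.4, 104 and 72.1 CPM in LIF HP, log2 fold change -1.57, adjusted p = 0.0121) and Uty (80.4, 96.9 and 49.5 CPM and 17, 16 and 30.9 CPM, -1.85, adjusted p = 0.0442) fell, beside 4.63% that fell among all genes. Over 6 genes of the Y chromosome the mean of the libraries' medians of gene-centred log2 CPM differed by -1.32 (LIF HP minus LIF LP), and the libraries of the groups did not overlap. For autosomes the same difference lay between -0.183 on chromosome 18 and 0.163 on chromosome 7. Ddx3y lost its call without LIF LP replicate 2 or LIF HP replicate 3 (adjusted p up to 0.0632), and Uty without each library except LIF LP replicate 3 (up to 0.161) and with length-adjusted offsets (0.106).

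**Figure D4:**
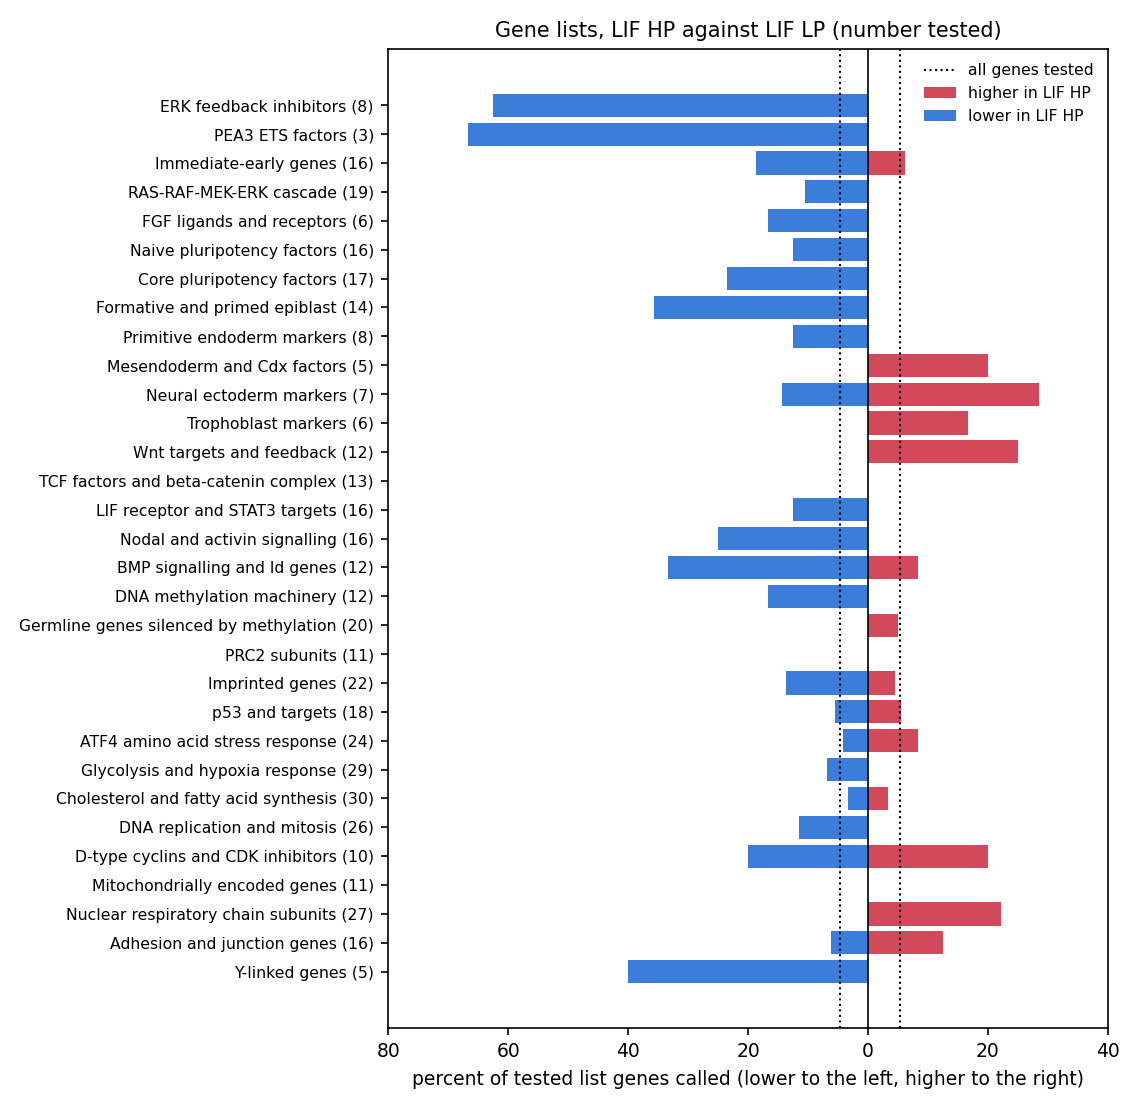
Percent of the tested genes of each list that were called lower (blue, to the left) and higher (red, to the right) in LIF HP, with the number tested in brackets and dotted lines at the share over all 10643 genes (4.63% lower, 5.33% higher). The 2 of 3 PEA3 factors and 5 of 8 ERK feedback inhibitors reach farthest to the left, followed by 2 of 5 Y-linked and 5 of 14 formative genes.

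The same step from LP to HP was measured in CH+LIF and in 2i+LIF, with no library shared between the 3 contrasts, and the difference between media was tested gene by gene. Against CH+LIF 45 genes (0.423%) differed, 24 (0.226%) with a more positive and 21 (0.197%) with a more negative change in LIF. Against 2i+LIF 16 genes (0.15%) differed, 13 (0.122%) and 3 (0.0282%). At an unadjusted p under 0.05 the numbers were 1244 and 1175. Both counts moved with most single libraries: that against CH+LIF was 5 to 42 and that against 2i+LIF 7 to 55 when a library of the groups compared was left out, and the closing section gives those that moved by over 1.5 times. Krtdap and Trpm1 kept their calls in both tests under every alternative and omission that was run, as did Adam23 and Ccnd2 against CH+LIF and Snx20 and Uhrf2 against 2i+LIF.

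Krtdap rose in LIF far more than in the other media. It stood at 2.91, 8.47 and 3.04 CPM in CH+LIF LP and 17.5, 9.54 and 10.7 CPM in CH+LIF HP, while 2i+LIF had 33.7, 18.9 and 12.9 CPM at LP and 38.1, 16.4 and 43.1 CPM at HP. The log2 fold change in LIF exceeded that in CH+LIF by 7.54 (SE 0.96, adjusted p = 0.000235) and that in 2i+LIF by 8.34 (SE 0.88, adjusted p = 6.15e-06). The LIF LP libraries were the lowest of these 6 groups and the LIF HP libraries the highest. Trpm1, a cation channel of melanocytes and retina, was at 4.41, 0.664 and 1.44 CPM in LIF LP and 64.4, 59.1 and 87.6 CPM in LIF HP, while 2i+LIF had 81.4 ± 24.9 CPM at LP and 81.1 ± 20 CPM at HP (mean ± SD, n = 3). Its difference was 3.87 (SE 0.64, adjusted p = 0.00601) against CH+LIF and 4.94 (SE 0.63, adjusted p = 0.000122) against 2i+LIF. The LIF HP libraries overlapped those of 2i+LIF, and the LIF LP libraries lay below all of them. The calcium-binding protein gene S100a13 rose from 45.7, 15.9 and 43.3 CPM to 738, 1093 and 1398 CPM in LIF and stood at 71.5 ± 46.5 and 93.5 ± 18.7 CPM in CH+LIF.

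Several falls in LIF differed from the change in CH+LIF. Adam23 was at 165, 136 and 95.7 CPM in CH+LIF LP and 50.6, 116 and 118 CPM in CH+LIF HP (difference -6.29, SE 0.95, adjusted p = 0.00337). In 2i+LIF it went from 79.9 ± 48 CPM at LP to no counts at HP, and the difference from LIF was not called (adjusted p = 0.54). Ccnd2, highest in LIF LP among all 7 groups, stood at 4.36, 7.26 and 0 CPM in CH+LIF LP and 17.5, 7.63 and 16.8 CPM in CH+LIF HP (difference -6.24, SE 0.98, adjusted p = 0.00337). Dusp6 was at 33.4, 41.8 and 38.7 CPM in CH+LIF LP and 30.5, 40.5 and 40.4 CPM in CH+LIF HP, with overlap, and its change differed from that in LIF by -5.75 (SE 1.18, adjusted p = 0.0301). That of Etv4 differed by -2.73 (SE 0.52, adjusted p = 0.0188). In 2i+LIF, Dusp6 stood at 0.701, 34.4 and 26.3 CPM at LP, where replicate 1 is a library that stood apart, and at 2.32, 4.91 and 2.88 CPM at HP. The changes of Dusp6 (adjusted p = 0.352) and Etv4 (0.298) in 2i+LIF were not called different from those in LIF. The difference from CH+LIF was lost without 8 of the 12 libraries compared for Dusp6 (adjusted p up to 0.096) and without 5 of 12 for Etv4 (up to 0.075).

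Snx20 and Uhrf2 changed in 2i+LIF and were not called in LIF. Snx20, a sorting nexin, was at 22.6, 17.9 and 8.66 CPM in LIF LP and 21.6, 37.6 and 10.3 CPM in LIF HP, with overlap, while 2i+LIF had 42.1, 28.9 and 32.4 CPM at LP and 0.465, 1.09 and 0.958 CPM at HP (difference 5.84, SE 0.83, adjusted p = 0.000565). Uhrf2, a reader of hydroxymethylated DNA, was at 19.3, 28.6 and 22.6 CPM and 13.9, 19.1 and 19.6 CPM in LIF and at 5.61, 6.89 and 11.2 CPM and 69.7, 93.8 and 62.3 CPM in 2i+LIF (difference -3.67, SE 0.62, adjusted p = 0.00681).

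**Figure D5:**
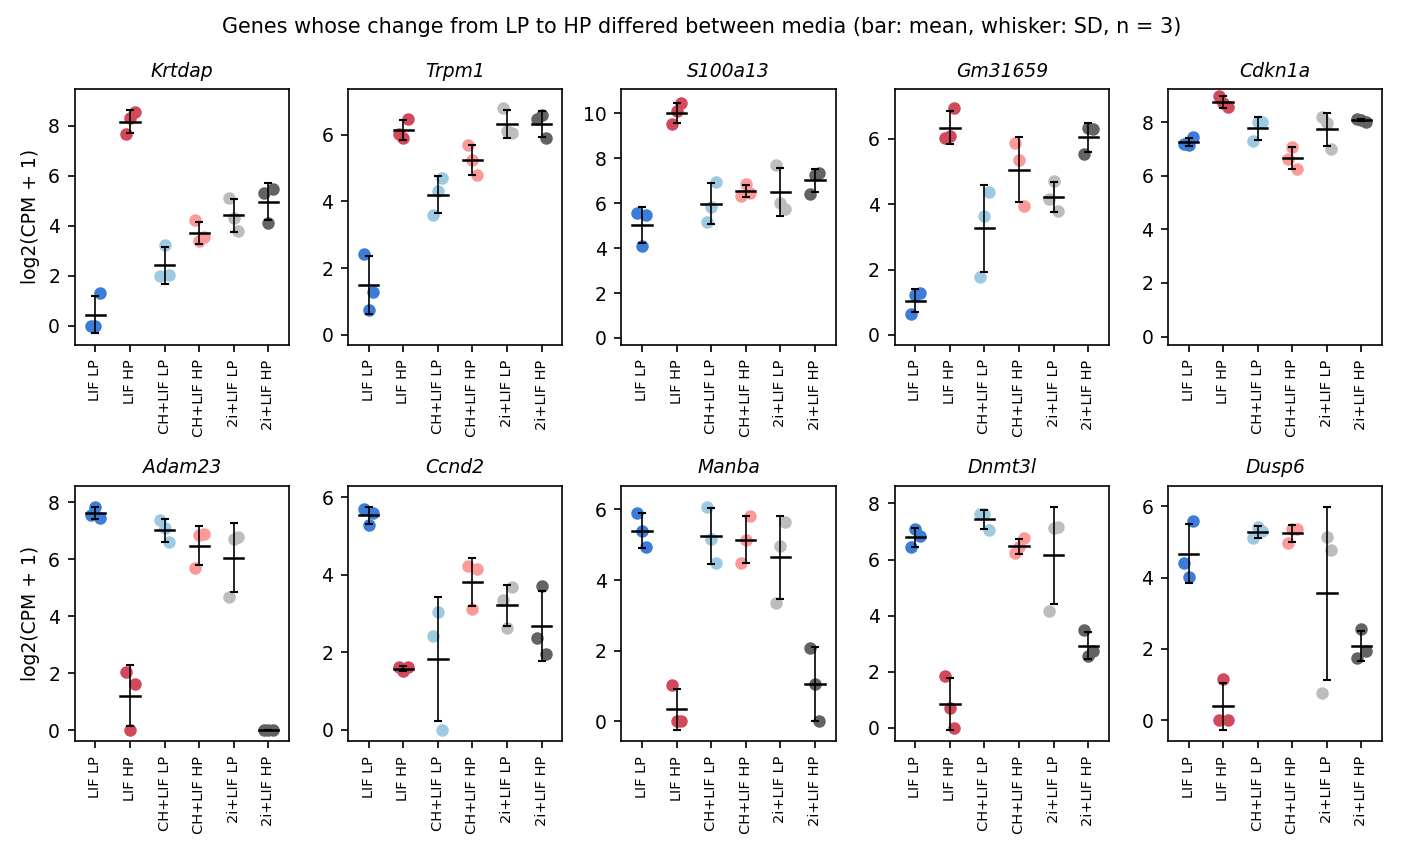
Level of 10 genes as log2(CPM + 1) in the LP and HP libraries of the 3 media (points), with the mean (bar) and SD (whisker). Krtdap, Trpm1, S100a13 and Gm31659 have their lowest mean in LIF LP, and every CH+LIF HP library lies above every LIF HP library in Adam23, Manba, Dnmt3l and Dusp6.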

How the data were processed

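The libraries were made from 125 ng of total RNA by a sequencing service, per the labels' protocols. The authors deposited 1 table per library of whole-number read counts per gene, not normalized, which per the submitters' processing notes came from bcl2fastq, STAR 2.6.0a and HTSeq with the mouse build mm10. The annotation and strand setting are not given in the sources used here. The closing entries of each table that name no gene stayed out of library sizes and tests. They held 8.46 to 24.6% of reads outside genes, 23.1 to 35.4% aligned to several places and 0.303 to 0.683% ambiguous ones in the 6 libraries of LIF LP and LIF HP. Gene names, positions (GRCm38) and overlaps came from GENCODE M21, which matched 31011 of 31053 deposited IDs. Of these, 11038 genes overlap another.

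All 21 libraries (7 groups of 3) were fitted together with edgeR 4.0.16 in R 4.3.3: genes kept by filterByExpr, TMM scaling, quasi-likelihood test, 14 residual degrees of freedom, Benjamini-Hochberg adjustment over all 10643 genes and a threshold of 0.05. CPM were computed from the deposited counts with TMM-scaled library sizes, and log2 values with a prior count of 2. Ratios of pooled counts use TMM-scaled library sizes, and folds against a group without counts are bounds with a floor of 3 counts over the group. The intervals cover counting error at 95% (exact binomial) only. Media were compared by the difference of the HP minus LP log2 fold changes in the same fit. The smallest exact two-sided p of 3 libraries against 3 is 0.1, so no single value was tested by permutation. Scripts were tested on simulated data.

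The text names the 12 largest rises and 12 largest falls among called genes with a mean of at least 5 CPM in the higher group whose libraries did not overlap, the 8 most abundant called genes in each direction, the 5 largest called differences between media in each direction and test, and called genes of 33 lists (558 genes, 6 without a match). Uncalled genes named were picked by their known roles, after their values could be seen. A few genes of the lists are not reported here by name. The comparison and the lists were chosen with earlier results of these data known. Alternatives were DESeq2 1.42.0, its size factors, no filter, equal depth, only the groups compared, a replicate block, voom with quality weights (limma 3.58.1), leaving out mitochondrial genes and Gm42418, leaving out libraries, and length-adjusted offsets, the last and omissions outside the comparison being chosen after seeing the data.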

Additional observations from a re-analysis of the deposited data

Results flagged for a closer look

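At 45 genes the LP to HP change was not the same in LIF as in CH+LIF, by edgeR's test of the difference of the log2 fold changes. Besides Krtdap (adjusted p = 0.000235), Ccnd2 (0.00337), Adam23 (0.00337), Trpm1 (0.00601), Etv4 (0.0188) and Dusp6 (0.0301), described above, 5 named genes had a more positive change in LIF. S100a13 differed by 4.53 (SE 0.82, adjusted p = 0.0103). Gm31659, a transcript that overlaps 4930513N10Rik, rose from 0.551, 1.33 and 1.44 CPM to 64.4, 66.5 and 122 CPM in LIF and was at 11.2 ± 8.66 and 37.3 ± 21.7 CPM in CH+LIF LP and HP (mean ± SD, n = 3; adjusted p = 0.0322). The CDK inhibitor Cdkn1a was at 223 ± 59.5 and 103 ± 29.8 CPM in CH+LIF (difference 2.61, adjusted p = 0.021). Tfap2c was at 52.9 ± 26.1 and 33 ± 2.96 CPM (difference 2.38, adjusted p = 0.0477). Lad1, a basement membrane protein, rose from 1.1, 0 and 0 CPM to 21.6, 16.6 and 8.24 CPM in LIF and was at 2.41 ± 0.557 and 3.41 ± 2.21 CPM in CH+LIF (adjusted p of the difference = 0.0472).

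Others had a more negative change in LIF than in CH+LIF. Dnmt3l stood at 175 ± 37.3 CPM in CH+LIF LP and 89.1 ± 16.9 CPM in CH+LIF HP (difference -5.40, SE 0.97, adjusted p = 0.0103). Manba stood at 40.9 ± 23.1 and 36.9 ± 16.9 CPM (difference -6.27, SE 1.15, adjusted p = 0.0123). Zfp462 stood at 85 ± 39.9 and 53.7 ± 14 CPM (difference -3.37, SE 0.64, adjusted p = 0.0159). Robo4, a receptor of endothelial cells, was at 14.9, 7.3 and 19.7 CPM in LIF LP and 0.515, 0 and 0 CPM in LIF HP and at 2.06 ± 2.12 and 8.44 ± 3.93 CPM in CH+LIF (adjusted p of the difference = 0.0322). Utf1 (0.0459), Egr1 (0.0459) and Etv1 (0.0474) lay just inside the threshold. In 2i+LIF, Dnmt3l, Manba, Zfp462, Utf1 and Egr1 also fell from LP to HP (edgeR, adjusted p from 0.000721 for Utf1 to 0.0401 for Egr1). Robo4 (0.276) and Etv1 (0.9998) were not called there. For none of these genes was the change in 2i+LIF called different from that in LIF. Length-adjusted offsets ended the calls of Lad1 (adjusted p = 0.0651), Etv1 (0.219) and Tfap2c (0.0559), and a replicate block ended those of Egr1 (0.0563), Etv1, Lad1 and Tfap2c (0.0572 each). Of the 12 libraries compared, leaving out 1 at a time ended the call of Etv1 and Utf1 in all 12 cases, of Egr1 and Tfap2c in 11, of Robo4 and Lad1 in 10, of Cdkn1a and Gm31659 in 9, of Zfp462 in 5, of Manba in 3 and of Dnmt3l and S100a13 in 2.

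Against 2i+LIF the change differed at 16 genes. Krtdap (6.15e-06), Trpm1 (0.000122), Snx20 (0.000565) and Uhrf2 (0.00681) are described above, where these values are adjusted p from the same edgeR fit. S100a13 in 2i+LIF was at 109 ± 87.6 CPM at LP and 134 ± 42.7 CPM at HP (difference 4.63, SE 0.82, adjusted p = 0.00823). The imprinted Peg3 was at 46.3 ± 4.09 and 140.4 ± 73.3 CPM in 2i+LIF (difference -3.30, SE 0.61, adjusted p = 0.0135). Gm31659 had a more positive change in LIF (difference 4.30, adjusted p = 0.0378). Ppfibp2, a liprin that overlaps Cyb5r2 and 5330417H12Rik, had a more negative one (difference -3.16, adjusted p = 0.0459). Length-adjusted offsets ended the call of Ppfibp2 (adjusted p = 0.0605). Single omissions among these 12 libraries ended the call of Ppfibp2 in 10 cases, of Gm31659 in 9, of Peg3 in 4 and of S100a13 in 1.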

How the results depend on the processing

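The number of genes called in LIF HP against LIF LP, 1060, was 2539 with only the groups compared in the fit, 2370 without the 2 libraries of 2i+LIF that stood apart, 2747 by voom with quality weights and 1617 without 2i+LIF LP replicate 1. When each of the 6 libraries was left out in turn it was 399 to 811, with 419, 411 and 704 without LIF LP replicates 1 to 3 and 432 and 399 without LIF HP replicates 2 and 3. DESeq2 (1588), its size factors (1074), no filter (1294), equal depth (1051), leaving out mitochondrial genes and Gm42418 (1079) and length-adjusted offsets (766) stayed within 1.5 times. The 45 differences from CH+LIF became 134 with DESeq2, 171 without a filter, 592 with only the groups compared, 349 without the 2 libraries and 914 by voom, and 5 to 42 when a library compared was left out: 13, 13 and 14 without LIF LP replicates 1 to 3, 19, 8 and 14 without LIF HP replicates 1 to 3, 13 and 5 without CH+LIF LP replicates 2 and 3, and 19, 11 and 6 without CH+LIF HP replicates 1 to 3. Libraries outside gave 29 to 105: 105 and 29 without 2i+LIF PO replicates 1 and 3, and 101 and 29 without 2i+LIF LP replicates 1 and 2. Length-adjusted offsets gave 35, of which 37.1% were more positive, against 53.3% before. The 16 differences from 2i+LIF became 130 with DESeq2, about 1.6e2 without a filter, 9 with only the groups compared, 167 without the 2 libraries, 160 by voom and 27 with length-adjusted offsets. Single omissions of compared libraries gave 7 to 55: 10, 7, 9 and 7 without LIF LP replicates 1 and 2 and LIF HP replicates 2 and 3, 55 without 2i+LIF LP replicate 3, and 34 and 9 without 2i+LIF HP replicates 1 and 2. Without 2i+LIF PO replicates 1 and 2 it was 68 and 25. The cause of these shifts was not tested.

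The log2 fold change of Pou5f1 became -0.023 with length-adjusted offsets. That of Snx20 lay between -0.014 and 0.842 when single libraries were left out, the former without LIF HP replicate 2. Neither gene was called. Of the 115 named genes that were called in LIF, none changed sign, 21 lost the call with length-adjusted offsets, 25 to 49 without single LIF LP or LIF HP libraries, 0 to 9 without single libraries of other groups, 5 without a filter and 1 (Dusp5) with the replicate block. Equal depth ended 6 calls among the 110 still tested, and leaving out mitochondrial genes and Gm42418 ended 2. With each of the 6 LIF LP and LIF HP libraries left out in turn, 57 kept the call throughout and 8 lost it in all 6 cases. By list, core pluripotency calls were 9 with only the groups compared and 8 by voom against 4, formative calls 9 by DESeq2, voom or no filter against 5, imprinted calls lower 5, 6 and 7 by DESeq2, no filter and voom against 3, replication calls 5 with only the groups compared and 6 by voom against 3, and respiratory chain calls 11, 12, 16, 11 and 16 with DESeq2, no filter, only the groups compared, the replicate block and voom against 6. The replicate block gave 1280, 39 and 20 calls in the 3 tests. Deviations of libraries with the same number correlated at 0.162, -0.043 and -0.024, so the numbers were not taken to pair the libraries. At these depths 3 counts correspond to 1.44 to 3.09 CPM, below which a fall cannot be told from 0.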
